A study of Mus musculus with 8 samples.

Results

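The genes described here are 9 transcription factors that specify and maintain the myeloid lineage: Spi1, Cebpa, Cebpb, Cebpd, Maf, Klf2, Klf4, Runx1 and Gfi1. They were taken by symbol from a count table of 53647 named mouse genes, and all 9 passed the filter on low counts that left 13412 genes for testing. The table holds 8 polyA RNA libraries of leukemia macrophages from the C57BL/6 strain, sorted after 12 h of culture. In 4 libraries the macrophages had been cultured together with mesenchymal stromal cells (MSC, fibroblast-like support cells), and these are called E-Mac, for MSC-educated macrophages. In the other 4 the same kind of cell had been cultured alone (Mac). The labels give no genotype, transgene, animal age or sex for either group, nor the source of the stromal cells or the markers used in the sort.

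Myeloid identity is set by a small network of DNA-binding proteins whose balance, more than their mere presence, separates the branches of the lineage. PU.1, the product of Spi1, opens chromatin across the lineage and is needed for macrophages. The C/EBP proteins act beside it, C/EBP-alpha at the entry to the granulocyte and monocyte branch and C/EBP-beta in stress and inflammation, while GFI1 represses monocytic genes in granulocyte precursors. KLF4 promotes monocyte differentiation, KLF2 holds myeloid cells in a quiescent state, and MAF restrains proliferation and sustains programs of mature tissue macrophages. RUNX1 works upstream of many of these genes in blood formation.

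Total counts ran from 13377046 to 15740846 in E-Mac and from 11646025 to 15556935 in Mac. Values are counts per 1000000 (CPM), taken over the tested genes of a library and scaled by its TMM factor. Fold changes are log2 values of E-Mac over Mac, given ± the standard error with 4 libraries a group, and a gene is called where its adjusted p was under 0.05 (edgeR's quasi-likelihood F test, Benjamini-Hochberg adjustment over all tested genes). No label ties a library to an animal or a dish of its own, so the p-values speak of library-to-library spread, which may be technical. E-Mac 2 and 4 stood apart from E-Mac 1 and 3 and held the most stromal marker counts, so results are also given without them where they change. Changed scaling means upper-quartile factors or total-count scaling (no factors) in place of TMM. Macrophage transcripts were present in every library: Csf1r, the receptor for the macrophage growth factor, averaged 1023 ± 114 CPM in E-Mac and 984 ± 74.0 CPM in Mac (SD, n = 4 each), and Adgre1, which encodes F4/80, averaged 765 ± 40.8 CPM in E-Mac and 379 ± 41.6 CPM in Mac.

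Maf was the factor that gained most, about 10.8-fold, and Klf4 the factor that lost most, about 10.9-fold. Cebpb rose modestly, whereas Cebpa, Klf2, Cebpd and Gfi1 fell, and Spi1 did not pass the test. In all, 8 of the 9 factors were called, 3 of them higher and 5 lower in E-Mac, with a median log2 fold change of -0.66 against -0.00305 over all tested genes. The background is high in this comparison, since 58.3% of all tested genes were called, 29.5% as higher and 28.8% as lower. Higher calls made up 50.6% of all calls, and 37.4% under total-count scaling, which also moved the median of all genes to -0.147. A called change of at least 2-fold was found in 4 of the 9 factors, against 20.1% of all tested genes: upward in 1 factor (9.57% of all genes) and downward in 3 (10.5%). At an adjusted p under 0.01, 7 of the 9 were called, against 46% of all tested genes. The groups of 4 libraries did not overlap for 7 of the 9 factors, against 53.9% of all tested genes, the exceptions being Spi1 and Runx1.

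**Figure D1:**
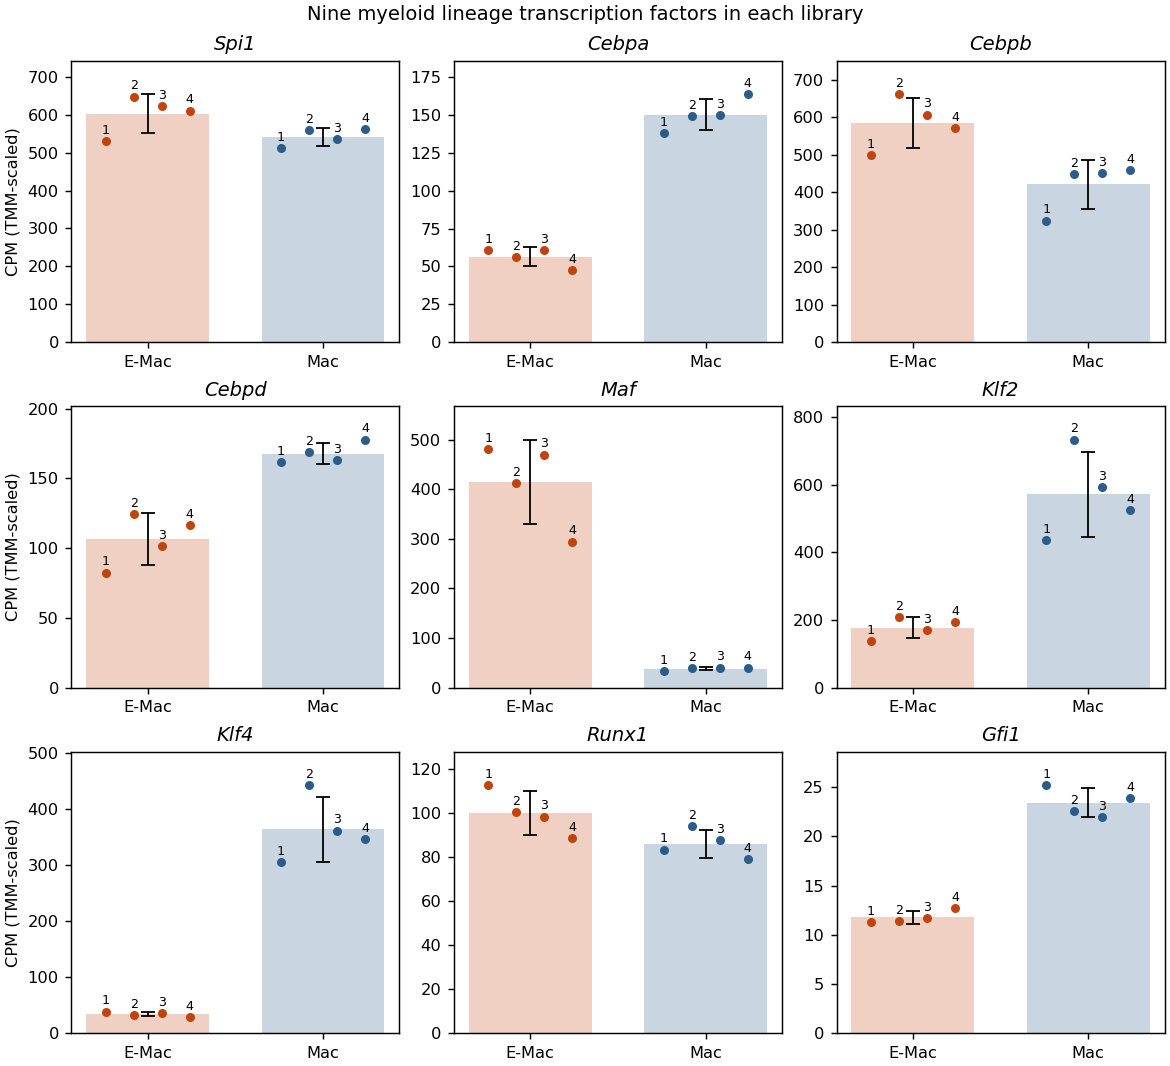
CPM of the 9 factors in each library, with E-Mac (red) left of Mac (blue). Points are libraries with their replicate number, bars are means and whiskers are SD over 4 libraries. The Maf bar of E-Mac (415 CPM) and the Klf4 bar of Mac (364 CPM) dwarf their counterparts, while the groups overlap for Spi1 and Runx1.

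Maf encodes c-MAF, a large MAF protein of the basic leucine zipper class that drives Il10 and genes of resident macrophages. It lies at chr8:115682942-115707794 on the minus strand of mm10 and is annotated as protein coding. Its level was 481, 413, 470.2 and 294 CPM in E-Mac 1 to 4, against 33.6, 39.3, 40.3 and 40.4 CPM in Mac 1 to 4. Every E-Mac library therefore lay far above every Mac library, and E-Mac 4 was the lowest of its group. The log2 fold change was 3.43 ± 0.15 (adjusted p = 3.345e-09), a size reached or exceeded by few genes, since 97.9% of the tested genes changed by no more. It was 3.64 without E-Mac 2 and 4.

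Of the small MAF genes, whose proteins lack an activation domain, Mafk rose (0.68 ± 0.20), Mafg rose slightly (0.18 ± 0.06), and Maff was 1.004 ± 0.44 without passing (adjusted p = 0.0742). The Mafg call was lost under either changed scaling (0.08 upper-quartile, 0.03 total-count). The groups overlapped for Mafk, and its call was lost without E-Mac 2 and 4 (0.51). Mafa and Nrl were too low to test.

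Genes linked to large MAF proteins in tissue macrophages did not move as a block. Of 13 tested genes in this list, 5 rose and 5 fell, with a median of 0.16 and 76.9% called. The endothelial-type scavenger receptor gene Stab1 rose (4.68 ± 0.18), as did the platelet chemokine gene Pf4 (7.84 ± 0.48), the folate receptor gene Folr2 (4.50 ± 0.63), the bacterial scavenger receptor gene Marco (4.44 ± 0.62) and Il10 (1.49 ± 0.48). Pf4 had 33 reads over all Mac libraries, so the size of its rise rests on few reads. Folr2 and Marco stayed low, at 1.67 ± 0.582 and 2.31 ± 0.894 CPM in E-Mac (SD, n = 4), and had 4 and 6 reads over all Mac libraries. Il10 was low too, at 2.74 ± 0.734 CPM in E-Mac and 1.002 ± 0.731 CPM in Mac, and its groups overlapped. The prostaglandin-degrading enzyme gene Hpgd (-4.22 ± 0.19), the haemoglobin scavenger receptor gene Cd163 (-2.03 ± 0.26), F13a1 (-1.20 ± 0.19), Selenop (-1.19 ± 0.13) and the complement gene C1qa (-0.98 ± 0.17) fell. The other C1q genes, C1qb (0.25 ± 0.24, adjusted p = 0.398) and C1qc (-0.21 ± 0.19, adjusted p = 0.371), did not pass. Without E-Mac 2 and 4, 7 rose and 5 fell, with a median of 0.63, and C1qb was among those called higher (0.629).

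Klf4 and Klf2 encode zinc finger proteins of the Krüppel-like family with closely similar DNA-binding domains, and both fell. Klf4 (chr4:55527143-55532466, minus strand) stood at 38.0, 31.8, 35.1 and 28.8 CPM in E-Mac 1 to 4, against 305, 443, 361 and 346 CPM in Mac 1 to 4. The groups lay far apart, and Mac 2 was the highest library. The log2 fold change was -3.44 ± 0.12 (adjusted p = 1.666e-10). Klf2 (chr8:72319033-72321656, plus strand) stood at 138, 209, 169 and 193 CPM in E-Mac 1 to 4, against 436, 733, 594 and 524 CPM in Mac 1 to 4. Again no E-Mac library reached the lowest Mac library, and Mac 2 was the highest. The log2 fold change was -1.69 ± 0.17 (adjusted p = 8.115e-06), and -1.89 without E-Mac 2 and 4.

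Klf4 fell more than Klf2 within the same libraries. The log2 ratio of Klf4 to Klf2 read counts was -1.86, -2.72, -2.27 and -2.74 in E-Mac 1 to 4, against -0.52, -0.73, -0.72 and -0.60 in Mac 1 to 4, a difference of -1.76 that does not depend on how libraries are scaled. Several genes of rapid response to stimulation were ordered alike over the Mac libraries. Mac 2 was the highest and Mac 1 or Mac 4 the lowest for Klf2, for the relative Klf6 (1113 CPM in Mac 2, against 623 in Mac 4), for the nuclear receptor gene Nr4a1 (434 in Mac 2, against 248 in Mac 4) and for Egr1 (312 in Mac 2, against 136 in Mac 1). Mac 2 was also the library with the fewest counts, and the part of either in the Klf results was not tested. Leaving out Mac 2 gave -3.32 for Klf4 and -1.53 for Klf2, and both kept their calls.

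Most of the wider family moved the same way. Of 10 other tested KLF genes 6 fell: Klf9 (-2.63 ± 0.13), a glucocorticoid-induced factor, Klf11 (-1.93 ± 0.12), Klf8 (-1.58 ± 0.23), Klf13 (-1.17 ± 0.08), Klf5 (-0.96 ± 0.19) and Klf10 (-0.77 ± 0.08). Klf16 (0.38 ± 0.11) and Klf7 (0.30 ± 0.11) rose, although neither was called under total-count scaling (0.24 and 0.16), and Klf7 was not called with upper-quartile factors or without E-Mac 2 and 4 either. Klf6, the most abundant family member in E-Mac, averaged 595 ± 33.6 CPM in E-Mac and 790.3 ± 228 CPM in Mac (SD, n = 4 each) and did not pass (-0.41 ± 0.16, adjusted p = 0.0502), but was called lower under either changed scaling. Per kilobase of exon, Klf2 supplied 29.2% ± 3.01 of the summed tested KLF transcripts in E-Mac and 40.6% ± 1.95 in Mac, and Klf4 3.39% ± 0.648 in E-Mac and 15.8% ± 0.535 in Mac (SD, n = 4 each). Klf6 supplied 41.5% ± 1.72 in E-Mac and 23.4% ± 2.53 in Mac.

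The sequences just upstream of the start sites of Klf2 and Klf4, and of the C/EBP genes Cebpb and Cebpa, are shown because these are paralogs that moved together (Klf2 and Klf4) or apart (Cebpb and Cebpa). Each is the 250 bases before the annotated start, 5′ to 3′ on the strand of the gene, from RefSeq on GRCm38.p6, the assembly that mm10 names. Capitals mark TGACG or its reverse complement CGTCA, the core of the cyclic AMP response element. RefSeq start sites were on hand for 6 of the 9 factors, and those of Spi1, Cebpd and Maf were not analysed here.
Klf2, chr8:72318812-72319061, plus strand: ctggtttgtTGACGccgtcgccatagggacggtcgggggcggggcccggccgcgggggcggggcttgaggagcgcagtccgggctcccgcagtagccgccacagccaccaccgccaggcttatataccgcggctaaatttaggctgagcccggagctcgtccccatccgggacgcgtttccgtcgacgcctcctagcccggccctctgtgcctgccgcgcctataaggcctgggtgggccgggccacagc
Klf4, chr4:55532476-55532725, minus strand: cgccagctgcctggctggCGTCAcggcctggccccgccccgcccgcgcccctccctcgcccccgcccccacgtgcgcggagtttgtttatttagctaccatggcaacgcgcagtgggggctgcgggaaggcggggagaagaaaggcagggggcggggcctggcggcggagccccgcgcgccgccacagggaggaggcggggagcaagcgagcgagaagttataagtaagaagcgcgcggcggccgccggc
Cebpb, chr2:167688665-167688914, plus strand: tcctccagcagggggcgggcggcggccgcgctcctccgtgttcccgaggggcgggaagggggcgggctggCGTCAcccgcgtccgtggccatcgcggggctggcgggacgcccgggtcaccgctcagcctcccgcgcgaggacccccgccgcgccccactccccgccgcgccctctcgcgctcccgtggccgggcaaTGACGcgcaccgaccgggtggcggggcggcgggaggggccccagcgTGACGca
Cebpa, chr7:35119043-35119292, plus strand: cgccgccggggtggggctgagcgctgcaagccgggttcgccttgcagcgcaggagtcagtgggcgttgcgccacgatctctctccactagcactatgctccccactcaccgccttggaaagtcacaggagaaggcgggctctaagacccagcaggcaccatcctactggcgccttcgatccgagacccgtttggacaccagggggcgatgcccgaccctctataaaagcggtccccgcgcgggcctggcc
The core stood 3 times in the Cebpb sequence, 1 time each in those of Klf2 and Klf4, and not in those of Cebpa, Gfi1 and Runx1. Of 32851 RefSeq windows of the same length 17.8% held it on either strand. The GC box GGGCGG was found 5 times in Cebpb, 4 times in Klf4 and 2 times in Klf2, and in 32.7% of all windows. The Klf2 window alone among these held a loose form of the recognition pattern of MEF2 factors (CTA, any 4 bases, TAG), which 3.2% of all windows hold. With the middle bases left free, that share is not the share of windows with a full MEF2 site. These matches describe the letters and show nothing about binding.

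MEF2 proteins, switched on by the kinase ERK5, are the known inducers of Klf2 in endothelial cells. Mef2a rose (0.46 ± 0.09), and Mef2c (0.28 ± 0.09), Mef2d (0.25 ± 0.06) and the ERK5 gene Mapk7 (0.21 ± 0.06) were called higher by small amounts. These last 3 were not called under either changed scaling, and Map2k5, the kinase of ERK5, was -0.20 ± 0.10 without passing (adjusted p = 0.0925) and was called lower under either changed scaling. Over the whole list of 9 tested upstream regulators of the factors, 5 rose and 1 fell (median 0.21, 66.7% called). With upper-quartile factors 2 rose and 2 fell, and under total-count scaling 2 rose and 3 fell.

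Genes that KLF2 or KLF4 regulate in endothelium, T cells or macrophages were split. Of 10 tested, 4 rose and 2 fell, with a median of 0.07 and 60% called. Under either changed scaling 4 rose and 4 fell, with medians of -0.04 and -0.08, and without E-Mac 2 and 4, 5 rose and 4 fell, with a median of 0.40. The sphingosine-1-phosphate receptor gene S1pr1 (4.21 ± 0.15), the lipopolysaccharide co-receptor gene Cd14 (2.57 ± 0.10), the cell cycle inhibitor gene Cdkn1a (1.73 ± 0.24) and Arg1 (9.73 ± 0.56) rose. Arg1 had 21 reads over all Mac libraries, so the size of its rise rests on few reads. The resistin-like gene Retnla (-4.32 ± 0.37) and Pparg (-0.38 ± 0.11) fell. The integrin gene Itgb7 (-0.20 ± 0.09) did not pass, but was called lower under either changed scaling and without E-Mac 2 and 4. Thrombomodulin, Thbd, was -0.03 ± 0.11 (adjusted p = 0.808).

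The C/EBP genes moved in opposite directions. Cebpa (chr7:35119293-35121928, plus strand) was 61.0, 55.9, 60.7 and 47.6 CPM in E-Mac 1 to 4, against 138, 149, 149.9 and 164 CPM in Mac 1 to 4. The groups did not overlap, and the log2 fold change was -1.42 ± 0.09 (adjusted p = 1.777e-08). Cebpb (chr2:167688915-167690418, plus strand) was 500.1, 662, 608 and 571 CPM in E-Mac 1 to 4, against 325, 449, 452 and 459 CPM in Mac 1 to 4. Here every E-Mac library was above every Mac library, but the gap between E-Mac 1 and Mac 4 was small and Mac 1 lay well below the other Mac libraries. Cebpb rose by 0.47 ± 0.12 (adjusted p = 0.003324). Cebpd (chr16:15887286-15891031, plus strand), an acute-phase relative that stimuli induce together with Cebpb in other settings, was 82.5, 125, 102 and 117 CPM in E-Mac 1 to 4, against 162, 169, 163 and 178 CPM in Mac 1 to 4. It fell by 0.66 ± 0.11 on the log2 scale (adjusted p = 0.0001536), and by 0.86 without E-Mac 2 and 4.

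The rise of Cebpb is the less firm of the C/EBP results. Without E-Mac 2 and 4 its value was 0.40 and its call was lost (adjusted p = 0.135), and without Mac 1 it was 0.37. Over the 19 alternatives the adjusted p of Cebpb spanned 0.000419 to 1. The upper end came from the test for a change beyond 1.5-fold, and 0.135 was the highest among tests for any change. On the opposite strand the 5′ part of Tmem189 shares 312 of the 1504 exon bases of Cebpb, and Tmem189 had 1674 to 2327 reads in E-Mac libraries and 659 to 913 in Mac libraries. The sources used here do not give the strand setting of the counting, and without it reads of these genes cannot be told apart in the shared stretch. Spidr shares 562 exon bases with Cebpd in the same way, with 422 to 530 reads in E-Mac and 457 to 720 in Mac. Opposite-strand genes that overlap Cebpa, Maf, Runx1 or Gfi1 had at most 32 reads in any library.

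Because they are ratios within a library, the balances between C/EBP genes do not rest on scaling. The log2 ratio of Cebpb to Cebpa read counts was 3.04, 3.56, 3.32 and 3.58 in E-Mac 1 to 4, against 1.23, 1.59, 1.59 and 1.49 in Mac 1 to 4, so that Cebpb had about 10.4 reads for each Cebpa read in E-Mac and 2.78 in Mac. The log2 ratio of Cebpd to Cebpb averaged -2.47 ± 0.15 in E-Mac and -1.31 ± 0.21 in Mac, and that of Cebpa to Spi1 -3.42 ± 0.24 in E-Mac and -1.85 ± 0.06 in Mac (SD, n = 4 each). These and the ratios of Klf4 to Klf2 and Gfi1 to Spi1 all separated the groups without overlap. Each gave p = 0.0286 in an exact two-sided permutation test, the smallest p that 4 against 4 libraries can give. The p was also 0.0286 after Benjamini-Hochberg adjustment over the 6 pairs compared, which include a pair not reported here.

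**Figure D2:**
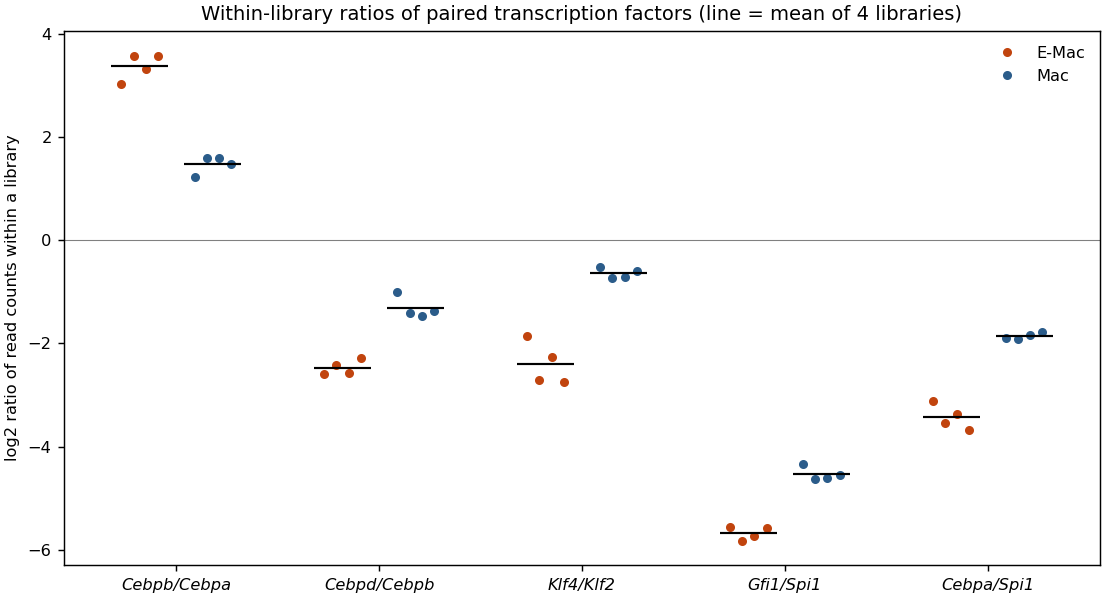
Log2 ratio of read counts of 5 gene pairs within each library, E-Mac (red) left of Mac (blue), with a line at the mean of 4 libraries. The groups do not overlap for any pair shown. Cebpb to Cebpa is higher in E-Mac and the other 4 are lower.

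Among the relatives, Cebpe, which drives the late granule program, stood at 93.5, 146, 113 and 179.6 CPM in E-Mac 1 to 4, against 150.3, 153, 141 and 144 CPM in Mac 1 to 4, and did not pass (-0.14 ± 0.17, adjusted p = 0.487). E-Mac 2 and 4 were the higher libraries of their group, and without them Cebpe was called lower (-0.50). Cebpg fell (-0.79 ± 0.07) and Ddit3, which encodes the stress-induced C/EBP partner CHOP, rose (1.496 ± 0.13). Cebpz, which shares the name but not the leucine zipper, fell slightly (-0.30 ± 0.07). Per kilobase of exon, Cebpb supplied 70.04% ± 3.51 of the summed Cebpa, Cebpb, Cebpd, Cebpe and Cebpg transcripts in E-Mac and 53.8% ± 3.98 in Mac, and Cebpa 3.91% ± 0.846 in E-Mac and 11.01% ± 0.518 in Mac (SD, n = 4 each). Trib1, a pseudokinase that directs C/EBP-alpha to degradation, was 0.13 ± 0.30 (adjusted p = 0.733), its relative Trib3 rose (2.40 ± 0.26) to 6.90 ± 1.02 CPM in E-Mac, against 1.32 ± 0.490 CPM in Mac, and the ubiquitin ligase gene Cop1 fell (-0.67 ± 0.09).

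Genes that depend on C/EBP factors in granulocytes were lower almost throughout. Most of them also stand among the granule and mature neutrophil markers summed below, so both results describe largely the same transcripts. Of 17 tested, 14 fell and the other 3, Prtn3 (-0.44 ± 0.27), Ctsg (0.36 ± 0.27) and Mmp8 (0.11 ± 0.09), did not pass, with a median of -1.14 and 82.4% called. The ficolin gene Fcnb (-3.40 ± 0.12), the cathelicidin gene Camp (-2.91 ± 0.14) and the chitinase-like Chil3 (-2.40 ± 0.10) had the smallest adjusted p. Without E-Mac 2 and 4 Ctsg was called higher (0.66). In contrast, of 13 tested genes inducible through C/EBP-beta in macrophages 8 rose and 2 fell, with a median of 1.31 and 76.9% called. Arg1, the arginase of alternatively activated macrophages, rose (9.73 ± 0.56, from 21 reads over all Mac libraries), as did the acute-phase gene Saa3 (4.53 ± 0.24) and the angiogenic factor gene Vegfa (2.44 ± 0.10). The chemokine gene Ccl2 (4.35 ± 0.41), Msr1 (3.39 ± 0.19), Il1b and Tnf rose too, and so did Il10, at low levels with overlapping groups. Lcn2, which is also a neutrophil granule gene, fell (-1.74 ± 0.14), and so did the receptor gene Il13ra1 (-0.91 ± 0.07). Il6 (0.86 ± 0.39), Mrc1 (0.16 ± 0.36) and Ptgs2 (-0.48 ± 0.31) did not pass, and Mrc1 was called higher without E-Mac 2 and 4 (0.70).

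Spi1 encodes PU.1, the ETS factor on which the macrophage program rests. It lies at chr2:91082390-91115756 on the plus strand and was 531, 648, 624 and 611 CPM in E-Mac 1 to 4, against 512, 559, 535 and 563 CPM in Mac 1 to 4. E-Mac 1 fell inside the Mac range and the other E-Mac libraries lay above it. The log2 fold change was 0.15 ± 0.08 and did not pass (adjusted p = 0.0998). It was called without E-Mac 1 (0.22, adjusted p = 0.0179, the lowest of the 19 alternatives) and came to 0.01 under total-count scaling (adjusted p = 0.919). The adjusted p reached 1 only in the test for a change beyond 1.5-fold.

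Of 16 tested ETS relatives of Spi1, 9 rose and 3 fell, with a median of 0.34 and 75% called. Etv5 (3.22 ± 0.19), Ets2 (1.63 ± 0.17), the PU.1-like Spic, a factor of iron-recycling macrophages (1.33 ± 0.18), the lymphoid PU.1 relative Spib (1.79 ± 0.35, at 4.36 ± 2.08 CPM in E-Mac and 1.26 ± 0.296 CPM in Mac, with a log2 change of 1.18 without E-Mac 2 and 4), Elk3 (1.14 ± 0.11) and Etv3 (0.75 ± 0.06) were among those that rose. Erg (-2.31 ± 0.21), Ets1 (-1.49 ± 0.10) and Elf4 (-0.30 ± 0.08) fell. Under total-count scaling, Elf2 and Gabpa were called lower as well.

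Of 18 tested genes that need PU.1 for their expression in myeloid cells 11 rose and 4 fell, with a median of 0.40 and 83.3% called. Under either changed scaling 10 rose and 5 fell. Msr1, a scavenger receptor gene (3.39 ± 0.19), Cd14 (2.57 ± 0.10), the high-affinity Fc receptor gene Fcgr1 (2.52 ± 0.14), Adgre1 (1.01 ± 0.08), the endotoxin receptor gene Tlr4 (0.90 ± 0.08) and the integrin gene Itgam (0.69 ± 0.07) rose. The NADPH oxidase gene Cybb (-0.79 ± 0.09), Ptprc (-0.32 ± 0.09), Csf3r (-0.29 ± 0.11) and Csf2ra (-0.18 ± 0.06) fell. Csf1r was 0.06 ± 0.09 (adjusted p = 0.621), -0.09 under total-count scaling, and called higher without E-Mac 2 and 4 (0.17).

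Runx1 (chr16:92601466-92826149, minus strand) encodes the DNA-binding subunit of core binding factor. It was 113, 101, 98.5 and 88.6 CPM in E-Mac 1 to 4, against 83.4, 94.0, 87.7 and 79.3 CPM in Mac 1 to 4. The groups overlapped, since E-Mac 4 was below Mac 2. The log2 fold change was 0.22 ± 0.08 (adjusted p = 0.0358), and it depended on the scaling. It was 0.12 with upper-quartile factors and 0.07 under total-count scaling, and neither passed (adjusted p = 0.207 and 0.4405). Over the 19 alternatives the adjusted p spanned 0.000697 to 1, with the upper end from the test for a change beyond 1.5-fold. The call was also lost without Mac 1, Mac 3, Mac 4 or E-Mac 1 (adjusted p = 0.0904, 0.0663, 0.1145 and 0.0972). Its partner Cbfb fell slightly (-0.17 ± 0.06), Runx3 rose (0.43 ± 0.08), Runx2 did not pass (0.11 ± 0.15, but called lower without E-Mac 2 and 4, at -0.24), and the corepressor gene Cbfa2t3 fell (-1.56 ± 0.17), at 44.6 ± 13.3 CPM in E-Mac and 131 ± 3.61 CPM in Mac (SD, n = 4 each).

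Gfi1 (chr5:107716657-107726036, minus strand) encodes a zinc finger repressor that favours granulocytes over monocytes. It was 11.3, 11.4, 11.7 and 12.7 CPM in E-Mac 1 to 4, against 25.2, 22.6, 21.9 and 23.9 CPM in Mac 1 to 4. The groups were tight and well apart, and Gfi1 fell by 0.99 ± 0.10 on the log2 scale (adjusted p = 1.832e-06). Its log2 read ratio to Spi1 averaged -5.67 ± 0.13 in E-Mac and -4.53 ± 0.13 in Mac (SD, n = 4 each). The relative Gfi1b, a factor of erythroid and megakaryocytic cells, rose (0.74 ± 0.21), but its groups overlapped and it was not called without E-Mac 2 and 4 (0.36). Of the corepressors, Hdac1 (0.30 ± 0.10) and Kdm1a, the demethylase that GFI1 recruits (0.20 ± 0.07), were called higher, and neither was called under either changed scaling. Rcor1, Hdac2, Zbtb17 and Ehmt2 did not pass. Ehmt2 was called lower under either changed scaling, Zbtb17 lower under total-count scaling, and Hdac2 higher without E-Mac 2 and 4 (0.22).

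Genes known to be repressed by GFI1 were split, 6 higher and 4 lower of 15 tested, with a median of 0.06 and 66.7% called. The monocytic regulators Egr2 (2.84 ± 0.18), Nab2 (2.08 ± 0.16) and Csf1, the macrophage growth factor gene (2.23 ± 0.23), rose with Cdkn1a, Gfi1b and Id2 (0.38 ± 0.07). Ets1, Meis1 (-1.27 ± 0.18) and the elastase gene Elane (-1.06 ± 0.26) were among those that fell. Id1, Egr1, Csf1r, Cebpe and Hoxa9 did not pass. Without E-Mac 2 and 4, 7 were higher and 5 lower, with a median of 0.17: Id1 (0.43) and Csf1r were called higher and Cebpe lower, and Gfi1b was not called. Under either changed scaling the median was below 0 (-0.04 and -0.09).

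**Figure D3:**
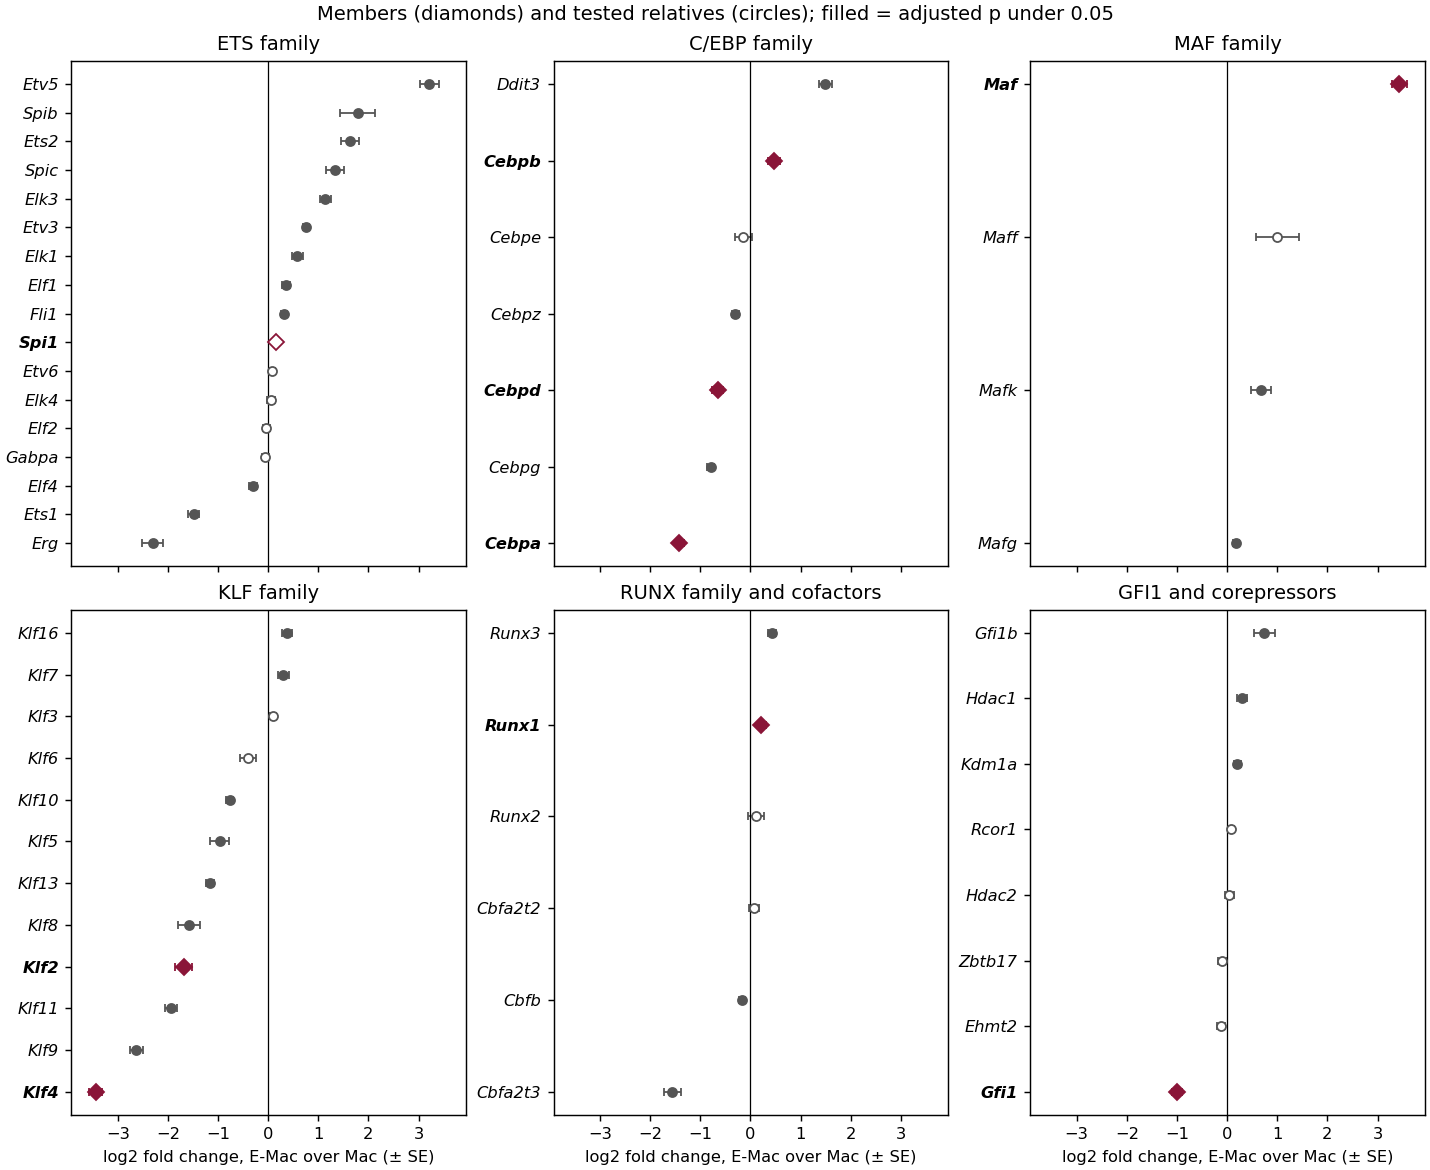
Log2 fold change of E-Mac over Mac (± SE, 4 libraries a group) of the 9 factors (diamonds) and of tested genes listed as their relatives or cofactors (circles, not all shown), by family. Filled symbols have an adjusted p under 0.05. Klf4 (-3.44) and Maf (3.43) lie at the ends of their families, and Spi1 (0.15) lies near 0 amid ETS genes that moved both ways.

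Levels between genes are compared per kilobase of merged exon. In E-Mac the order was Cebpb (389 ± 45.1 CPM per kilobase), Spi1 (224 ± 18.8), Klf2 (96.0 ± 16.6), Maf (50.3 ± 10.4), Cebpd (28.4 ± 4.95), Cebpa (21.4 ± 2.37), Klf4 (10.96 ± 1.32), Runx1 (8.32 ± 0.825) and Gfi1 (3.69 ± 0.204). In that order only Cebpd and Cebpa had ranges that overlapped. In Mac the order was Klf2 (309 ± 67.9 CPM per kilobase), Cebpb (280.04 ± 42.9), Spi1 (201 ± 8.70), Klf4 (119 ± 19.0), Cebpa (57.0 ± 3.98), Cebpd (44.8 ± 1.98), Gfi1 (7.34 ± 0.460), Runx1 (7.16 ± 0.523) and Maf (4.66 ± 0.393). There the ranges of Klf2 and Cebpb and those of Gfi1 and Runx1 overlapped. Maf was thus the lowest of the 9 in Mac and the fourth in E-Mac. It exceeded 91.7% of the 13292 tested genes with a known exon length in E-Mac and 46.4% in Mac, whereas Klf4 exceeded 66.6% in E-Mac and 97.45% in Mac.

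Other regulators of the monocyte and macrophage branch also moved in both directions. Of 22 tested, 10 rose and 6 fell, with a median of 0.11 and 72.7% called (9 and 8, with a median of -0.03, under total-count scaling). Mitf (2.07 ± 0.13) and Tfe3 (0.61 ± 0.08), which govern lysosomal genes, were among those that rose, with Egr2, Bhlhe40 (2.09 ± 0.17), Spic, Zeb2 (0.65 ± 0.08), Nr1h3 (0.78 ± 0.12), Id2 and Irf5 (0.25 ± 0.09, not called under either changed scaling). Nr4a1, which nonclassical monocytes require, fell most (-2.75 ± 0.19), with Irf4 (-2.39 ± 0.19), Batf3 (-2.15 ± 0.16), Ikzf1 (-0.79 ± 0.06), Hhex (-0.57 ± 0.07) and Pparg. Irf8, the partner of PU.1 in monocyte commitment, was 0.15 ± 0.12 (adjusted p = 0.305) and was called higher without E-Mac 2 and 4 (0.39).

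Of 15 tested factors of granulocytes and progenitors 3 rose and 6 fell, with a median of -0.28 and 60% called. Erg, the progenitor factor Myb (-1.08 ± 0.13), Meis1, Lyl1 (-0.59 ± 0.08) and Rara (-0.46 ± 0.08) were among those that fell, and Myc (1.03 ± 0.14), Gfi1b and Gata1 (0.60 ± 0.20, groups overlapping, not called under either changed scaling) rose. Without E-Mac 2 and 4, 2 rose and 9 fell of 16 tested, and Gata1 and Gfi1b were no longer called. Genes can stand in more than 1 of these lists.

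**Figure D4:**
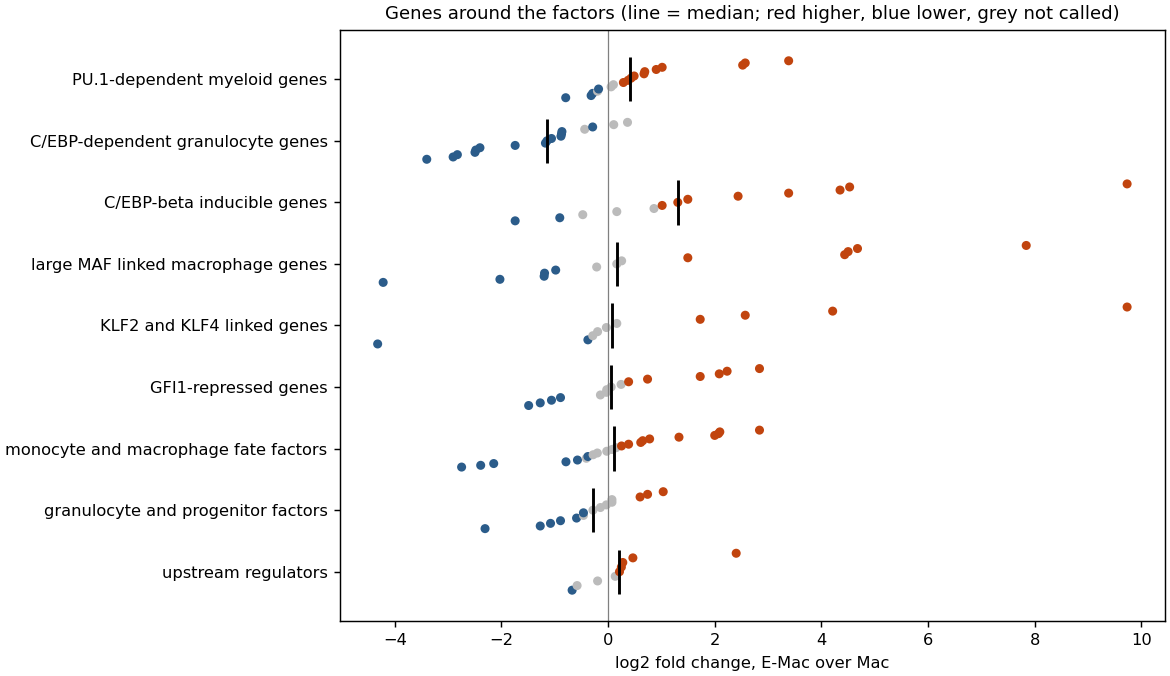
Log2 fold change of E-Mac over Mac for tested genes of 9 lists around the factors, each point a gene and each line the median of its list. Points are red where called higher, blue where called lower and grey where not called. The granulocyte genes that depend on C/EBP lie mostly left of 0 (median -1.14) and the genes inducible through C/EBP-beta mostly right of it (median 1.31), and the other lists spread to both sides.

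Transcripts of other cell types moved with the factors. In bulk libraries fewer cells of a type and less RNA per cell cannot be told apart. The 8 secondary granule markers of maturing neutrophils summed to 4066, 5949, 3897 and 3988 CPM in E-Mac 1 to 4, against 21429, 21733, 21067 and 20139 CPM in Mac 1 to 4, and none of the 8 was at 0 in either group. The 5 primary granule markers summed to 159.96 to 389.98 CPM in E-Mac and 410.5 to 539 in Mac, the 8 mature neutrophil markers to 8265 to 13939 in E-Mac and 17696 to 20476 in Mac, and the 7 stem and progenitor markers to 63.0 to 87.8 in E-Mac and 129.6 to 149 in Mac, without overlap. Singly, 2 of 5 (3 of 5 under either changed scaling) primary granule, 7 of 8 secondary granule, 5 of 8 mature neutrophil and 4 of 6 tested stem and progenitor genes fell, while 3 mature neutrophil genes (Cxcr2, Mmp9 and Il1r2) and the progenitor gene Cd34 rose. The groups overlapped for Cxcr2 and Mmp9, which were not called under either changed scaling. Without E-Mac 2 and 4 both were still called higher, by smaller amounts (0.17 and 0.14). S100a9 (4240 CPM in E-Mac, 9376 in Mac) and S100a8 (2970 in E-Mac, 5481 in Mac) led the mature neutrophil sum. The granule, mature neutrophil and progenitor sums were lower beside Cebpa, Cebpd and Gfi1, which granulocyte precursors also express. The part of these markers in those results was not tested. The 10 monocyte markers summed to 5901 to 6758 CPM in E-Mac and 8883 to 9902 in Mac, beside the fall of Klf4 and Klf2, with 7 of the 10 genes lower and 2 higher. Fn1 led the fall of this sum, at 774 CPM in E-Mac and 3443 in Mac. The 2 higher genes were Ly6c2 (1.44 ± 0.07) and Vcan (1.26 ± 0.15). The part of the monocyte markers in the Klf results was not tested.

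The 15 stromal markers summed to 65.2, 399, 49.0 and 428 CPM in E-Mac 1 to 4, against 5.41 to 7.86 CPM in Mac, and Col3a1, Pdgfra and Lum were at 0 in every Mac library. Stromal cells also express several of the factors, and E-Mac 2 and 4 held more Cebpd (121 CPM on average, against 92.2 in E-Mac 1 and 3) and Klf2 (201 against 154) and less Maf (354 against 476), Cebpa (51.7 against 60.8) and Klf4 (30.3 against 36.6). E-Mac 2 and 4 also held more mature neutrophil marker counts (13939 and 12997 CPM, against 8265 and 9116 in E-Mac 1 and 3). Their macrophage core sums were lower (11459.5 and 9490.1 CPM, against 12699 and 13218 in E-Mac 1 and 3). The part of stromal cells, or of these other differences, in the results was not tested. With E-Mac 2 and 4 left out Maf, Klf4, Klf2, Cebpa, Cebpd and Gfi1 kept their direction and their call. That fit cannot speak to the stromal part, because E-Mac 1 and 3 still held more stromal counts than Mac (65.2 and 49.0 CPM). The macrophage core sum was 9490.1 to 13218 CPM in E-Mac and 12877 to 13895 in Mac, with an overlap, although 8 of its 10 genes rose and only Lyz2 fell. Dendritic cell markers summed to 69.2 to 112 CPM in E-Mac and 148 to 165 in Mac, T and NK cell markers to 2.80 to 5.14 CPM in E-Mac and 14.4 to 23.5 in Mac, and erythroid markers to 0.135 to 0.503 CPM in E-Mac and 48.2 to 65.1 in Mac. Cd3e was at 0 in all 8 libraries, and Hba-a1, Hba-a2 and Hbb-bs were at 0 in every E-Mac library. B cell markers overlapped, at 14.2 to 27.8 CPM in E-Mac and 15.6 to 17.8 in Mac. In exact two-sided permutation tests adjusted over the 11 lists, macrophage core and B cell markers did not pass (adjusted p = 0.0629 and 0.143), and the other 9 did, each with an adjusted p of 0.0349.

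**Figure D5:**
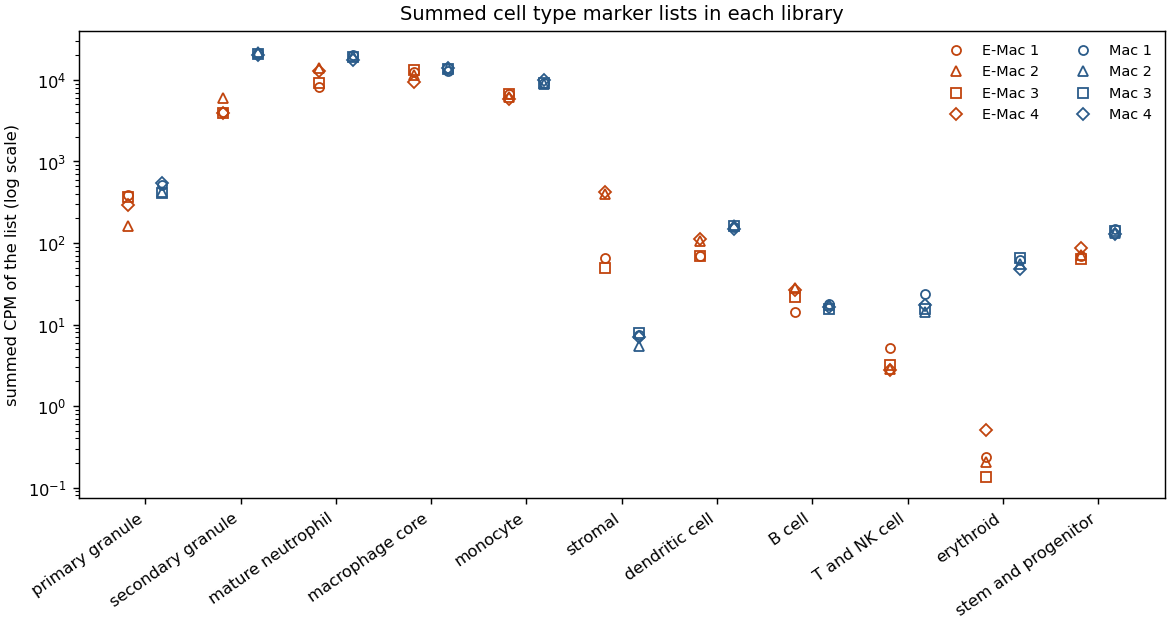
Summed CPM of 11 marker lists in each library on a log axis, E-Mac (red) left of Mac (blue), with a symbol for each replicate number. Secondary granule sums lie between 3897 and 5949 CPM in E-Mac and between 20139 and 21733 CPM in Mac, and E-Mac 2 and 4 lie above E-Mac 1 and 3 for the stromal list.

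The genes whose levels followed the factors most closely were found by the root mean square difference between log2 CPM profiles over the 8 libraries, each centred on its own mean, among 11564 tested genes with a regular symbol. This measure is led by the difference between the groups and says nothing of shared control. Among the closest to Maf were the lysosomal Rab gene Rab7b (0.09 log2 units) and the semaphorin co-receptor gene Nrp2 (0.11). Closest to Klf2 were the class II invariant chain gene Cd74 (0.10), the class II gene H2-Eb1 (0.12) and the clock gene Per1 (0.15). Closest to Klf4 were the sterol hydroxylase gene Cyp27a1 (0.17) and Fcnb (0.18), and closest to Cebpa were the centromere gene Mis18a (0.04), Hmgn2 (0.08) and the complement gene C3 (0.09). Cebpb lay closest to Pgm2 (0.09), Cebpd to Rnf166 (0.05), Spi1 to the actin regulator gene Arpc5 (0.02), Runx1 to the caspase gene Casp9 (0.05) and Gfi1 to the peroxisomal enzyme gene Crot (0.07).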

How the data were processed

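The deposited file held raw counts, whole numbers of reads for each gene symbol, in 8 library columns. Per the submitters' processing notes the build was mm10 and the tools included HISAT2, Subread's featureCounts, bcl2fastq and DESeq2, with no versions. No annotation release, strand rule or handling of multi-mapped reads was stated in them. RNA was extracted with the RNeasy micro kit and DNase, and libraries were made with the VAHTS mRNA-seq V3 kit, per the labels. Names in the form of dates (26, holding 0.133 to 0.160% of a library) were left out.

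Tests were run on these counts in R 4.3.3 with edgeR 4.0.16. Genes were kept by filterByExpr at a count of 10 and a total of 15, and TMM factors came to 0.931 to 0.970 in E-Mac and 1.03 to 1.07 in Mac. The quasi-likelihood model was robust with the group as its only term, and p-values were adjusted by Benjamini-Hochberg over 13412 genes. The standard error was the log2 fold change divided by the square root of F. The procedure was tested on simulated data. Ratios of read counts (pseudocount 0.5) and marker sums were compared by an exact permutation test (scipy 1.17.1). Exon lengths and gene positions came from GENCODE M21 on mm10. Libraries of a group differed beyond sampling noise in every pair, with a chi-square per degree of freedom of 4.85 or more. DESeq2 1.42.0 and limma-voom (limma 3.58.1) were among the alternatives. The 9 factors and the 26 lists (15 of regulators and related genes, 11 of cell type markers) were chosen with earlier results of these data known. Genes named beside the factors were their relatives, the 3 with the smallest adjusted p of each list, the 2 most abundant of each marker list and the 3 with the nearest profile to each factor, not all printed. Other list members were named after their values were seen. A few genes are not reported here.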

Additional observations from a re-analysis of the deposited data

Results flagged for a closer look

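Of 54 groups of 4 libraries examined (values of the factors, ratios, marker sums and total counts), 5 had a library whose gap to its nearest neighbour exceeded Dixon's 95% limit for the range of the group, and chance flags about 1 in 20. Mac 1 stood below the other Mac libraries for Cebpb (325 CPM, against 449 to 459) and for Maf (33.6 CPM, against 39.3 to 40.4). E-Mac 2 had the highest secondary granule sum of its group (5949 CPM, against 3897 to 4066). E-Mac 1 had the highest T and NK cell sum of its group (5.14 CPM, against 2.80 to 3.17). Mac 2 had the fewest counts (11646025, against 15096159 to 15556935 in the other Mac libraries).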

How the results depend on the processing

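Over 19 alternatives Maf (3.29 to 3.64), Klf4 (-3.59 to -3.31), Klf2 (-1.89 to -1.53), Cebpa (-1.56 to -1.30) and Gfi1 (-1.14 to -0.95) kept their direction and their call. Cebpd (-0.86 to -0.55) was not called against a fold of 1.5 (adjusted p = 0.326), nor were Cebpb and Runx1. With that test 1 factor was higher and 4 lower, and 2968 genes and 68 of the listed genes were called, against 7814 and 109; the stricter test calls fewer by construction. At an adjusted p under 0.01 Runx1 was not called. Under total-count scaling, the share of calls that were higher was 37.4%, against 50.6%, and the median of all genes was -0.15. With each library left out in turn, 2 to 3 factors were higher, 5 were lower and 7233 to 7986 genes were called. The replicate number as a block gave 7458 genes, the same 3 and 5 factors by count, and 109 listed genes. Same-numbered libraries correlated at -0.106 to 0.03 across genes. With E-Mac 2 and 4 apart from E-Mac 1 and 3, these values cannot show whether libraries were paired, and no label pairs them. No filter, RLE factors, DESeq2 and limma-voom also gave 3 and 5. Without E-Mac 2 and 4 the Klf4 to Klf2 difference was -1.43 (-1.76 with all libraries) and the Cebpa to Spi1 difference -1.39 (-1.57). The log2 marker sum ratios moved to -1.14 (mature neutrophil), 3.04 (stromal), -1.18 (dendritic) and 0.10 (B cell) without E-Mac 2 and 4. With a mean of log2(CPM + 1) they were -0.34 (mature neutrophil), -0.9994 (monocyte), 2.02 (stromal), -0.82 (T and NK cell), -2.32 (erythroid) and 1.40 for macrophage core markers, which had been -0.21 as a sum led by Lyz2. Under total-count scaling the monocyte value was -0.69. The cause of these moves was not tested. Of the factors, depth limits Gfi1 most, with 145 to 177 reads in E-Mac libraries and 271 to 406 in Mac libraries.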
